A study of Homo sapiens with 4 samples.

Results

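Regions of open chromatin that were listed in 3 of 4 libraries of Huh7 cells and missing only in the untreated control are described here. The regions were chosen by the measured peaks themselves: peaks of the 4 libraries were joined wherever they shared a base, and a region was kept if it held a peak of each of the other 3 libraries and none of the untreated control. This gave 1406 of 69838 regions (2.01%). Their absence from the untreated control is a description and not a finding. The assay was ATAC-seq, which uses a transposase that cuts accessible DNA, and the cells were Huh7, an established line of human liver cancer. One group carried a control short hairpin RNA and received DMSO for 6 h (shControl DMSO). It is called the untreated control here because it received no rapamycin. Another group carried the same hairpin and received 100 nM rapamycin for 6 h (shControl rapamycin). The remaining groups carried a hairpin against ARID1A and received DMSO for 6 h (shARID1A DMSO) or 100 nM rapamycin for 6 h (shARID1A rapamycin). Every group held 1 library, made from nuclei of 50000 cells, and the sources used here do not say whether the hairpin lines were clones or pools.

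ARID1A helps the BAF complex, a SWI/SNF remodeller, to bind DNA; this complex moves nucleosomes and keeps many enhancers accessible. Rapamycin inhibits mTORC1, a kinase complex that couples nutrient and growth factor signals to cell growth. An ATAC-seq peak marks a promoter, an enhancer or another stretch of DNA that is free of nucleosomes in part of the cells. Promoters of active genes tend to be open in most cell types, while distal elements vary more between cell states.

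With 1 library per group, the spread between cultures was unknown and no test was possible. Intervals given below are exact (Clopper-Pearson) binomial 95% intervals and cover counting error only. The read depth behind the lists is unknown. The shControl lists held 52192 peaks in DMSO and 49783 in rapamycin, and the shARID1A lists 45700 and 44760. Where 3 values follow each other without further words, they stand for shControl in rapamycin, shARID1A in DMSO and shARID1A in rapamycin, in that order. The untreated control thus had the longest list, and its peak numbers ran without a break, while shControl rapamycin skipped 1093 numbers and shARID1A DMSO 6666. The numbers of shARID1A DMSO ran to 52366, above the 52192 of shControl DMSO. The sources used here do not say what the skipped rows were, and their part in absences from shARID1A DMSO was not tested. As a check of the cell type, 15 of 33 hepatocyte genes had a promoter region held by the other 3 lists, against 3 of 14 leukocyte, 0 of 12 endothelial, 3 of 12 stellate cell and fibroblast and 5 of 12 neuron markers. The level of ARID1A transcript or protein in these cells was not analysed here.

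Some promoters were among the strongest of these regions, but most of the 12 strongest lay away from promoters. RefSeq windows of some promoters follow as examples (GRCh38.p14, written 5′ to 3′ on the strand of the gene). Each window runs from 250 bases before to 50 after the start of the gene. MLLT1 and UBALD1 had the strongest regions whose window was in the RefSeq table, and SMARCD3 was a promoter of the SWI/SNF list. Capitals mark matches on either strand to 11 short motifs: AP-1 (TGACTCA), TEAD (GGAATG), HNF4 (CAAAGTCCA), FOXA (TGTTTAC), the GC box (GGGCGG), NF-Y (CCAAT), ETS (ACCGGAAG), NRF1, the E-box (CACGTG), the TATA box (TATAAA) and YY1.
MLLT1 (chr19:6279926-6280225, minus strand): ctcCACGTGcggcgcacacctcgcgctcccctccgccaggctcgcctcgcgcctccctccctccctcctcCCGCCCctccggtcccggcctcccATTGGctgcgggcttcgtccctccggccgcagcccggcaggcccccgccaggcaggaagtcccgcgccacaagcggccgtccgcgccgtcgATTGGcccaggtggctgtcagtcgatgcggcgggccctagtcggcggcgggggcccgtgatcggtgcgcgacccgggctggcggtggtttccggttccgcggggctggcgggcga
UBALD1 (chr16:4614839-4615138, minus strand): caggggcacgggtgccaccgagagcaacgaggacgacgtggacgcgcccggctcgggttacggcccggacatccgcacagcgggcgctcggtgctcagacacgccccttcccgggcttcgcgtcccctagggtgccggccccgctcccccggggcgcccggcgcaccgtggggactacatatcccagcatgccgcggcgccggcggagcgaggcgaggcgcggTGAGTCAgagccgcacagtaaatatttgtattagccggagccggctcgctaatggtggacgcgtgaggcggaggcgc
SMARCD3 (chr7:151277100-151277399, minus strand): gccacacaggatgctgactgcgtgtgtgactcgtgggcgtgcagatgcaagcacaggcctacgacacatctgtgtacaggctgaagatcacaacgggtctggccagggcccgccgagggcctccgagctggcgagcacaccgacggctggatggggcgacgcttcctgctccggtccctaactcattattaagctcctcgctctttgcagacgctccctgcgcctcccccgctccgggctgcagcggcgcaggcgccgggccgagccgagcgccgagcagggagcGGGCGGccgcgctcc
The MLLT1 window held 4 matches (an E-box, a GC box and 2 for NF-Y), the UBALD1 window 1 AP-1 match and the SMARCD3 window 1 GC box. The GC contents of the windows were 77.7%, 72.0% and 68.7%. The median over the 162 RefSeq windows of the set was lower, at 63.3%, so each example was richer in GC than the median window. The SMARCD3 GC box lay outside the region of the set, which began at position 151277155. The marked matches of MLLT1 and UBALD1 lay inside their regions. A match describes the letters of the window and does not show that a factor was bound.

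Of all regions present in the other 3 lists, 4.26% were absent from shControl DMSO (1406 of 32991, interval 4.05 to 4.49). Set up in the same way, the share absent was 4.5% for shControl rapamycin (1487 of 33072), 6.75% for shARID1A DMSO (2288 of 33873) and 8.3% for shARID1A rapamycin (2857 of 34442). These shares use the same 31585 regions held by all 4 lists, and so are not independent of each other. The interval of the untreated control overlapped that of shControl rapamycin (4.28 to 4.73). The order of the lists depended on their lengths. With equal numbers of top-scoring peaks (44760 a list), the share was 5.55% (5.30 to 5.80) for shControl DMSO, 4.70% (4.47 to 4.94) for shControl rapamycin, 5.70% (5.45 to 5.96) for shARID1A DMSO and 6.88% (6.60 to 7.15) for shARID1A rapamycin. The lowest share then belonged to shControl rapamycin.

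The regions were weak in the lists that held them. Within a list, the authors' deposited score ordered the peaks, and the rank is given in percent of the list length, where a low value is a strong peak. For shControl in rapamycin the median rank was 71.6% (quartiles 57.5 and 84.2). For shARID1A it was 70.4% in DMSO (56.6 and 83.1) and 67.7% in rapamycin (54.1 and 82.6). Regions held by all 4 lists had medians of 32.1%, 35.1% and 35.8% in the same lists. The stronger 50% of the list held 205, 226 and 258 of the 1406 regions, and 78 regions lay there in each of the 3 lists. At the other end, 15 regions lay in the weakest 10% of each list. Lists differed in length, so no change was read from the order of these medians.

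**Figure D1:**
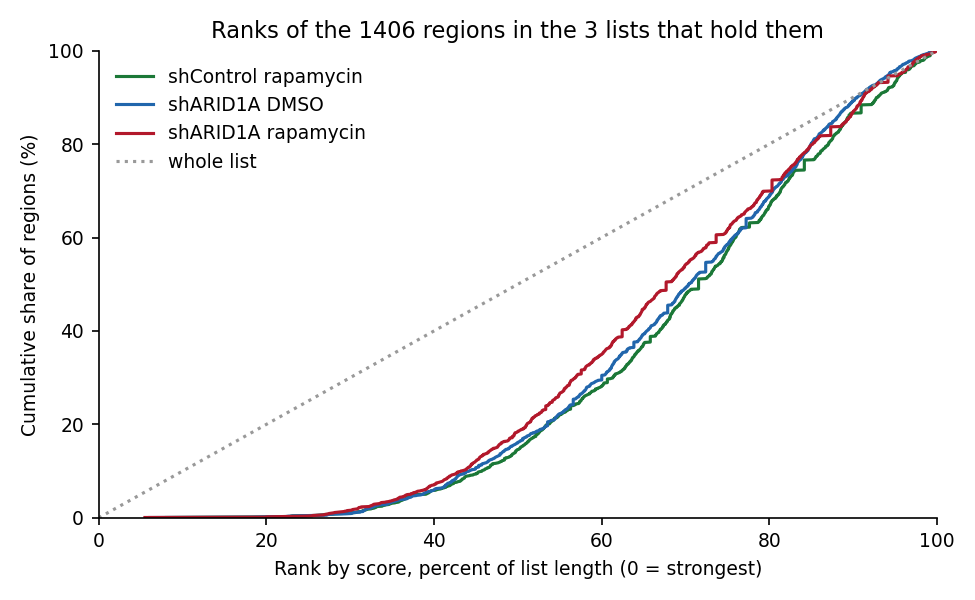
Cumulative share (vertical axis, %) of the 1406 regions against their rank by score in percent of list length (horizontal axis) in each of the 3 lists that hold them, with the whole list as a dotted diagonal. All 3 curves run below the diagonal through the stronger ranks, with medians of 71.6%, 70.4% and 67.7%.

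Ranks in the 3 lists went together, with Spearman rank correlations across the 1406 regions of 0.64 between the shARID1A lists, 0.52 between shControl rapamycin and shARID1A DMSO and 0.48 between shControl rapamycin and shARID1A rapamycin. Across the 31585 regions in all 4 lists the values were 0.92, 0.89 and 0.87. The ranks of the set spanned a narrower middle range, with quartiles in shControl rapamycin of 57.5% and 84.2%. For regions in all 4 lists these quartiles were 15.9% and 51.4%. The part of this range, or of base composition and local accessibility, in the correlations was not tested. These correlations are descriptions across regions, which are not replicates.

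SKI had by far the strongest region of the set. SKI encodes a nuclear co-repressor that binds SMAD proteins and restrains TGF-beta signalling. The region (chromosome 1, 2227436 to 2227977) was annotated to the SKI promoter, with the nearest peak centre 886 bp upstream of the transcription start site (TSS). Its peak ranked 4024 of 49783 in shControl cells under rapamycin, and 2792 of 45700 (DMSO) and 2470 of 44760 (rapamycin) in shARID1A cells, which is 8.08%, 6.11% and 5.52% of the lists. All 3 lists thus placed it among their strongest 10%, and no other region of the set reached that in any list. The nearest peak of shControl DMSO lay 1392 bp away. A second region of the set lay in intron 1 of SKI, 27307 bp from the TSS, and was weak, at 76.4%, 88.9% and 63.8%.

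MLLT1 and NSG2 came next, both at promoters. MLLT1 encodes ENL, a reader of acetylated histones in elongation complexes, and its region (chromosome 19, 6279944 to 6280324) ranked at 15.0%, 19.9% and 19.8%. The nearest untreated control peak was 61016 bp away. NSG2 encodes an endosomal protein of neurons, and its region (chromosome 5, 174045175 to 174045816) ranked at 26.4%, 18.2% and 20.2%, with the nearest control peak 19903 bp away. The UBALD1 promoter region (chromosome 16, 4614485 to 4615202) ranked at 22.9%, 30.5% and 27.2%. In that case a control peak lay 804 bp away. Only SKI and MLLT1 had a mean rank within 20%, and 12 regions had one within 30%.

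The other 8 of the 12 strongest regions were distal, with mean ranks between 26.4% and 29.8%. One lay in intron 2 of SHANK2, a scaffold gene of synapses (chromosome 11, 70650042 to 70651131), and ranked at 22.9%, 22.6% and 33.7%. Another lay in intron 1 of ARHGAP32, a GTPase-activating protein gene (chromosome 11, 129143410 to 129143962), at 31.5%, 27.9% and 29.7%. The nearest untreated control peak was 180138 bp away. Intergenic regions followed near LINC00996 (chromosome 7), AC114300.1 (chromosome 5), TBC1D3J (chromosome 17), the zinc finger gene ZBTB40 (chromosome 1) and ZCCHC3 (chromosome 20). TBC1D3J belongs to a family of near-identical copies, where reads may be placed among copies, so its position is uncertain. The region in AC073529.1 on chromosome X ranked at 31.2%, 30.1% and 28.1%.

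**Figure D2:**
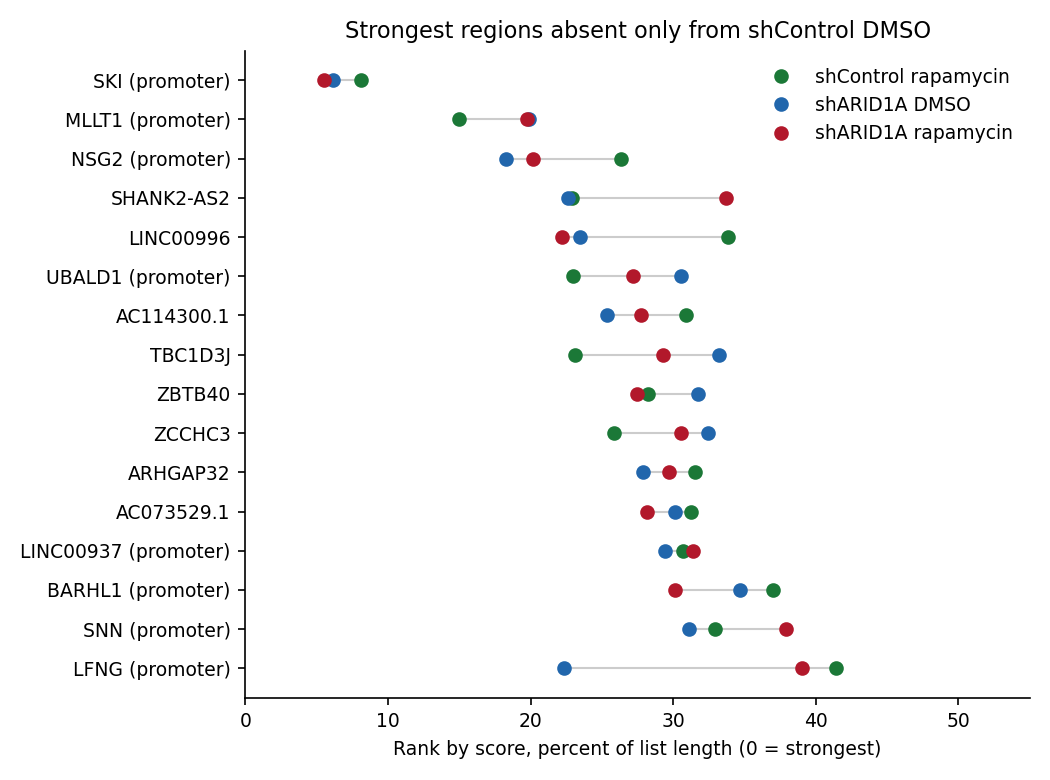
Rank by score in percent of list length (horizontal axis, low is strong) of the 12 strongest regions and the next 4 promoter regions, labelled by gene, with 1 point for each of the 3 lists that hold them. SKI stands apart at 5.52% to 8.08%, MLLT1 follows at 15.0% to 19.9%, and the remaining regions lie above 18%.

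Further strong promoter regions, chosen after their values were seen, belonged to LINC00937, the homeobox gene BARHL1, SNN and LFNG, a glycosyltransferase that modifies Notch receptors. Their mean ranks ran from 30.5% for LINC00937 to 34.3% for LFNG. The LFNG region (chromosome 7, 2519291 to 2519960) was uneven, at 41.4%, 22.3% and 39.0%, and strongest in shARID1A cells in DMSO.

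Promoters made up 18.3% of the set (257 of 1406, interval 16.3 to 20.4), counting a region as a promoter if the authors' distance put the centre of one of its peaks at most 1 kb from a TSS. The other 1149 regions were distal. The median of the mean rank was 72.2% for promoter regions of the set and 70.5% for distal ones, so promoter regions were not stronger as a group. Regions held by all 4 lists were promoters in 41.2% of cases. Because strong peaks are more often promoters, the regions in all 4 lists were also weighted to the rank distribution of the set, in bins of 10 percentage points of the mean rank over the same 3 lists. Their promoter share was then 16.2%, just under the lower bound of 16.3% of the set. With a limit of 2 kb from a TSS (22.6% against a matched 20.9%), or by the authors' own promoter annotation (13.7% against 12.7%), the matched value lay inside the interval of the set. With equal numbers of top-scoring peaks, the matched 15.3% lay below the interval (19.0%, 17.2 to 20.9). It lay just below with 20 rank bins (16.13% against a bound of 16.29%) and without chromosome 22 (16.05% against 16.22%). Whether the promoter share differs from that of regions of like rank thus depended on the setting and is not settled. For each of the other lists, regions absent from that list alone held fewer promoters than regions of matched rank in all 4 lists. The shares were 13.2% (11.5 to 15.0) against a matched 17.5% for shControl rapamycin, 6.47% (5.50 to 7.56) against 18.1% for shARID1A DMSO and 9.28% (8.24 to 10.4) against 18.5% for shARID1A rapamycin. The interval of the set did not overlap any of these 3 intervals. By the authors' promoter annotation it did overlap that of shControl rapamycin (11.9 to 15.6 and 9.04 to 12.2). Of the 4 sets, that absent from the untreated control was the one with a promoter share not below its matched value. In shARID1A DMSO 12.7% of the peak numbers are skipped, and the part of missing rows in its share was not tested.

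**Figure D3:**
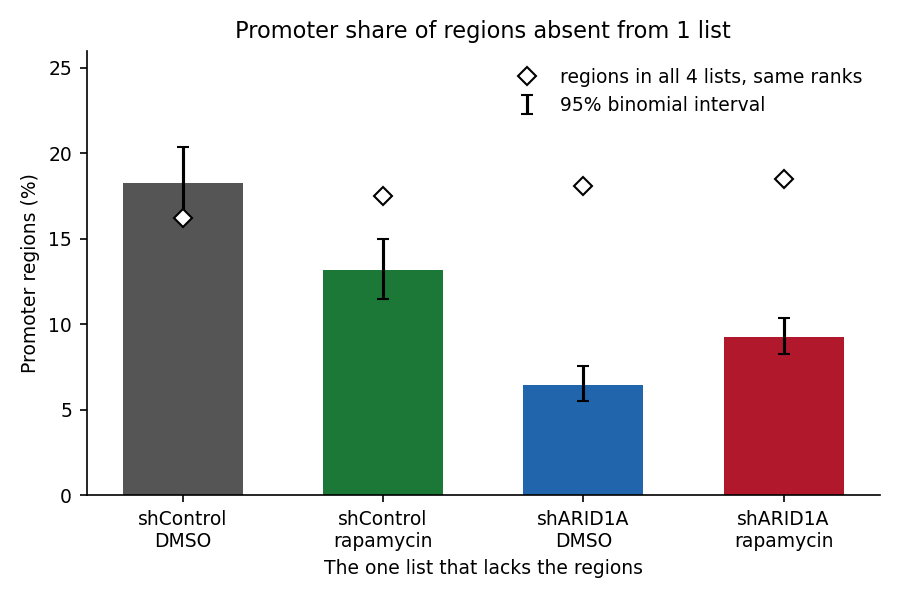
Promoter share (vertical axis, %) of the regions absent from exactly 1 list, with 1 bar for each list that lacks them, error bars for the exact binomial 95% interval, and diamonds for regions in all 4 lists weighted to the same ranks. The bar for shControl DMSO (18.3%) lies above its diamond (16.2%), and the other 3 bars lie below theirs.

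Regions were also split by kind and by rank. Among promoter regions in the other 3 lists, 1.94% were absent from shControl DMSO (257 of 13262), and among distal regions 5.82% (1149 of 19729). Weighted to the ranks of the promoter regions, the distal share was 1.79%, close to the promoter share and inside its interval of 1.71 to 2.19. For shControl rapamycin the promoter share was 1.48% and the distal share 6.5%, or 2.06% at matched rank. For shARID1A DMSO they were 1.13% and 10.3%, or 3.05% at matched rank, and for shARID1A rapamycin 2.00% and 12.2%, or 4.03% at matched rank. In the bin of mean ranks from 40% to 50%, 14 of 951 promoter regions were absent from the untreated control (1.47%, 0.807 to 2.46) and 106 of 3292 distal ones (3.22%, 2.64 to 3.88), so that promoters were lower and the intervals did not overlap. In each bin above 60% promoters had the higher share, with intervals that overlapped. From 60% to 70% the shares were 9.46% (7.08 to 12.3) and 8.55% (7.54 to 9.64). From 70% to 80%, 72 of 371 promoter regions were absent (19.4%, 15.5 to 23.8) and 304 of 2093 distal ones (14.5%, 13.0 to 16.1). From 80% to 90%, the shares were 32.6% (25.8 to 40.0) and 23.0% (20.4 to 25.8). Below 50% in mean rank, which is the stronger side, 0.79% of all regions were absent, against 11.1% above 50%.

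**Figure D4:**
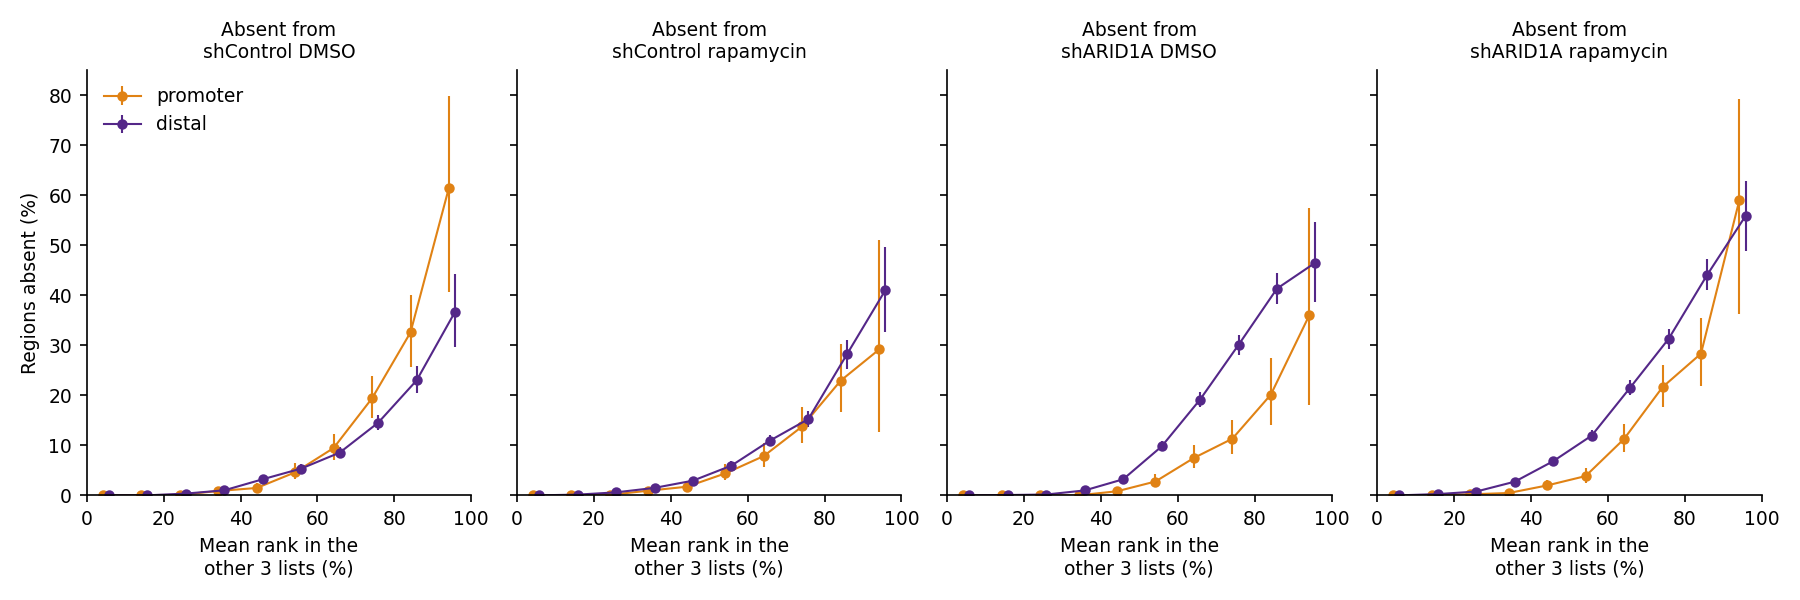
Share of regions absent from the named list (vertical axis, %) against their mean rank in the other 3 lists (horizontal axis, % of list length, bins of 10), for promoter and distal regions, with exact binomial 95% intervals and bins of at least 20 regions. Absence rises toward weak ranks in every panel, promoter points lie below distal points at 40% to 50% in the shControl DMSO panel (1.47% against 3.22%) and above them, with overlapping intervals, from 60% on, and distal points lie above promoter points between 40% and 90% in both shARID1A panels.

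By the class of their strongest peak, 45.1% of the regions lay in introns (634), 33.0% were intergenic (464), 11.7% were annotated as promoters (164), 6.47% lay in exons (91) and 3.77% at transcription ends (53). First introns held 16.4% of the set and 16.0% of the regions in all 4 lists. The median distance of distal regions to the nearest TSS was 16151 bp, against 15932 bp for distal regions in all 4 lists. Beyond 100 kb lay 3.27% of the set (2.41 to 4.34) and 3.21% of the regions in all 4 lists. The share was 9.31% for regions absent from shARID1A DMSO alone (8.15 to 10.6). It was 5.92% (4.77 to 7.24) for those absent from shControl rapamycin alone and 5.50% (4.69 to 6.40) for shARID1A rapamycin. Over promoter and distal regions together the set lay farther from genes than regions in all 4 lists, with a median distance of 11156 bp against 4176 bp and 53.3% (50.7 to 56.0) against 37.9% beyond 10 kb.

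The regions were narrow. Median peak widths were 505, 533 and 487 bp. Peaks of regions in all 4 lists, weighted to the same ranks, had medians of 694, 682 and 591 bp, so the widths of the set were 72.8%, 78.1% and 82.4% of those at matched rank. Regions absent from shControl rapamycin alone were narrow to a similar degree, between 72.8% and 80.5%. Those absent from 1 shARID1A list lay between 78.7% and 88.9%. Joined over the lists, a region spanned a median of 761 bp, from 318 to 2124 bp, and the set covered 1.13 Mb. In 1379 of the 1406 regions (98.1%) single peaks of all 3 lists shared a base, with a median of 327 shared bases over the set.

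The widest region, of 2124 bp, lay in intron 1 of FAM102B (chromosome 1, 108583667 to 108585790), with peaks of 1360, 1514 and 982 bp. The next, of 2092 bp, lay in the last exon of EIF5, a translation initiation factor gene (chromosome 14, 103343759 to 103345850), and owed its width to 1 list, with peaks of 467, 2092 and 866 bp. The promoter region of EMILIN2, an extracellular matrix glycoprotein gene (chromosome 18, 2846037 to 2847938), had peaks of 469, 1632 and 508 bp. Regions in the GAGE gene cluster of chromosome X (1862 bp) and in LINC00598 (chromosome 13, 1805 bp) completed the 5 widest. GAGE genes are near-identical copies, so the place of that region is uncertain.

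Few of the regions stood next to a peak of the untreated control. The gap to the nearest shControl DMSO peak had a median of 10427 bp (quartiles 4623 and 23894), and 43 regions (3.06%) lay within 500 bp of one. For regions absent only from shControl rapamycin, shARID1A DMSO or shARID1A rapamycin, 2.42%, 1.27% and 1.51% lay that near a peak of the lacking list. Their median gaps were 10701, 18881 and 11659 bp. The set had the highest share and the shortest median gap, but both were close to those for shControl rapamycin. Its gaps were measured to the longest list, and the part of list length was not tested. Just inside the rule were regions at the PYCARD-AS1 promoter, in intron 5 of PACSIN2 and in intron 2 of MED13L, with gaps of 40, 85 and 139 bp and mean ranks of 77.5%, 79.4% and 84.9%. Just outside it, among regions in all 4 lists, the smallest overlaps by a control peak were 4 bp at BBOX1, 8 bp in DOC2B and 40 bp in CABLES1, at mean ranks of 77.4%, 75.4% and 87.7%.

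Without matching on rank, sequences of the covered promoters were poorer in CpG than those of promoters open in all lists. The set overlapped 162 RefSeq promoter windows of 145 genes, through 136 regions, and windows of 1 gene can overlap, so the intervals that follow are too narrow. The median CpG count per 300-base window was 19.5, against 27 for the 15784 windows under regions in all 4 lists and 14 for all 35116 windows. On the mean, the set had 21.9 CpGs and 62.7% GC, slightly above the 19.6 and 61.7% of rank-matched windows under regions in all 4 lists. No interval was computed for these means. Windows under regions absent from shARID1A DMSO alone had 10.4 CpGs and 52.7% GC, below their matched 21.5 and 62.9%. The sets absent from shControl rapamycin or shARID1A rapamycin alone also lay below their matched values, but nearer to them. For shControl rapamycin the means were 18.1 CpGs and 60.9% GC, against a matched 21.5 and 62.9%. For shARID1A rapamycin they were 18.5 and 60.6%, against 21.1 and 62.8%.

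The GC box stood in 52.5% of the windows of the set (44.5 to 60.4), in 71.1% of windows under regions in all 4 lists, in 54.8% at matched rank and in 45.0% of all windows. AP-1 matches stood in 13 windows (8.02%, 4.34 to 13.3), compared with 3.17% under regions in all 4 lists, 5.57% at matched rank and 4.95% of all windows. Under regions absent only from shControl rapamycin, shARID1A DMSO or shARID1A rapamycin, the AP-1 shares were 6.06%, 16.3% and 9.55%. The AP-1 share was therefore not particular to the set. UBALD1, EMILIN2 and ZBTB20, a zinc finger repressor gene, were among the genes with an AP-1 match. The TEAD motif stood in 11.7% of the windows of the set and 14.0% of all windows, and the TATA box in 9.26% and 11.5%. For NF-Y the shares were 25.3% and 34.6%, for the E-box 7.41% and 7.26%, for ETS 3.09% and 2.17%, and for FOXA 1.85% and 3.42%. HNF4, NRF1 and YY1 had no match in the 162 windows (up to 2.25%), and 0.384%, 1.24% and 0.849% of all windows held them. At matched rank, the interval of the set included the share under regions in all 4 lists for 10 of the 11 motifs, and for ETS that share was lower, at 0.383%.

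Gene lists for liver, signalling and other cell types were each represented by few of the regions. The lists were chosen with earlier results of these data known. In 17 of 17 lists the share of regions absent from the untreated control had an interval that included the 4.26% of all regions. Of 305 promoter regions of list genes held by the other 3 lists, a gene on several lists counting for each, 3 were absent from shControl DMSO: those of SKI, APOA2 and SMARCD3. Over all genes, 1.94% of promoter regions were absent. APOA2, an apolipoprotein of high-density lipoprotein, had its region (chromosome 1, 161223999 to 161224925) at 50.2%, 75.8% and 66.6%. A control peak lay 842 bp away. SMARCD3, a BAF subunit known from heart and muscle, had its region (chromosome 7, 151277155 to 151277611) at 75.2%, 62.4% and 84.0%. APOA2 thus stood near the middle of the shControl rapamycin list. Otherwise both regions ranked on the weaker side of the lists, in contrast to the SKI promoter region.

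The TGF-beta, SMAD, SKI and ID list had 5 of 66 regions absent (7.58%, 2.51 to 16.8). For the ligand gene BMP2 the region was intergenic and 96099 bp from the TSS, at 68.5%, 73.4% and 73.7%. For the signal transducer SMAD3 it lay in intron 1, at 53.5%, 61.0% and 66.9%. ID4, which blocks DNA binding by basic helix-loop-helix factors, had one 14525 bp from its TSS, at 53.9%, 57.4% and 67.7%. The 2 regions of SKI made up the rest.

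YAP/TEAD targets had 4 of 47 regions absent (8.51%, 2.37 to 20.4), all distal. They lay near F3, encoding tissue factor, in the first intron of WWC1, encoding the Hippo regulator KIBRA, and at DOCK5. The F3 region was intergenic and 10080 bp from the TSS. DOCK5, a guanine exchange factor gene, had 2 regions in its first intron. The WWC1 region (chromosome 5, 168327743 to 168329463) ranked at 99.7%, 88.5% and 75.8%, so it was close to the end of the shControl rapamycin list. The stronger of the DOCK5 regions ranked at 35.4%, 53.2% and 52.8%.

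AP-1 and immediate early genes had 3 of 52 regions absent (5.77%, 1.21 to 15.9), with FOS, FOSL2 and SRF as nearest genes. The FOSL2 region was intergenic and 33527 bp from the TSS. The SRF region lay at the transcription end of PTK7, 41384 bp from the SRF TSS. The FOS region lay 4554 bp from the TSS (chromosome 14, 75283601 to 75284427), at 52.8%, 60.8% and 77.4%. SWI/SNF subunits had 2 of 33, the promoter of SMARCD3 and intron 8 of BICRAL, a subunit of the non-canonical BAF complex, at 52.4%, 53.3% and 71.4%. Of the mTORC1 pathway 1 of 64 regions was absent, near CASTOR1, an arginine sensor upstream of mTORC1 (chromosome 22, 30287033 to 30288252), at 53.0%, 46.5% and 36.6%. Hepatocyte genes had 1 of 43 (APOA2), epithelial-mesenchymal transition genes 1 of 43 (an intron of FN1, encoding fibronectin) and ribosomal protein genes 1 of 29 (18529 bp from the RPS3 TSS). Nuclear receptors and lipid regulators (0 of 32), liver progenitor and biliary genes (0 of 34), mTORC1-linked metabolic genes (0 of 40), lysosome and autophagy genes (0 of 29) and cell-cycle genes (0 of 43) had none. A count of 0 there allowed shares up to 10.9%, 10.3%, 8.81%, 11.9% and 8.22%. Among markers of other cell types, leukocyte genes had 0 of 6, endothelial genes 1 of 5 (LYVE1), stellate cell and fibroblast genes 0 of 8 and neuron genes 1 of 12 (exon 2 of NEUROD1). The LYVE1 region lay in an intron of MRVI1-AS1, 31065 bp from the LYVE1 TSS.

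Chromosome 22 had the highest share of absent regions, 7.79% (58 of 745, 5.96 to 9.95). It was chosen after its value was seen, among 23 chromosomes with at least 100 regions. All other chromosomes together had 4.18% (3.96 to 4.40), and 3.96% when weighted to the ranks on chromosome 22. The next were chromosomes 20 (5.52%, 4.19 to 7.11) and 21 (5.25%, 3.09 to 8.27), and the lowest was X (2.89%, 1.78 to 4.43). On chromosome 22 both kinds of region were above their shares over the genome, with 11 of 318 promoter regions (3.46%, 1.74 to 6.10) and 47 of 427 distal regions (11.0%, 8.20 to 14.4). Only the distal interval excluded the value over the genome, 5.82%. For the other lists the distal shares on chromosome 22 were 8.43% against 6.5% over the genome (shControl rapamycin), 6.17% against 10.3% (shARID1A DMSO) and 13.2% against 12.2% (shARID1A rapamycin). In consecutive windows of 10 Mb, starting at 10, 20, 30, 40 and 50 Mb, the shares of regions absent from the untreated control were 6.38%, 7.26%, 10.2%, 8.24% and 0 of 37 (exact interval up to 9.49%). Each of these windows had an interval that included the 7.79% of the chromosome.

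**Figure D5:**
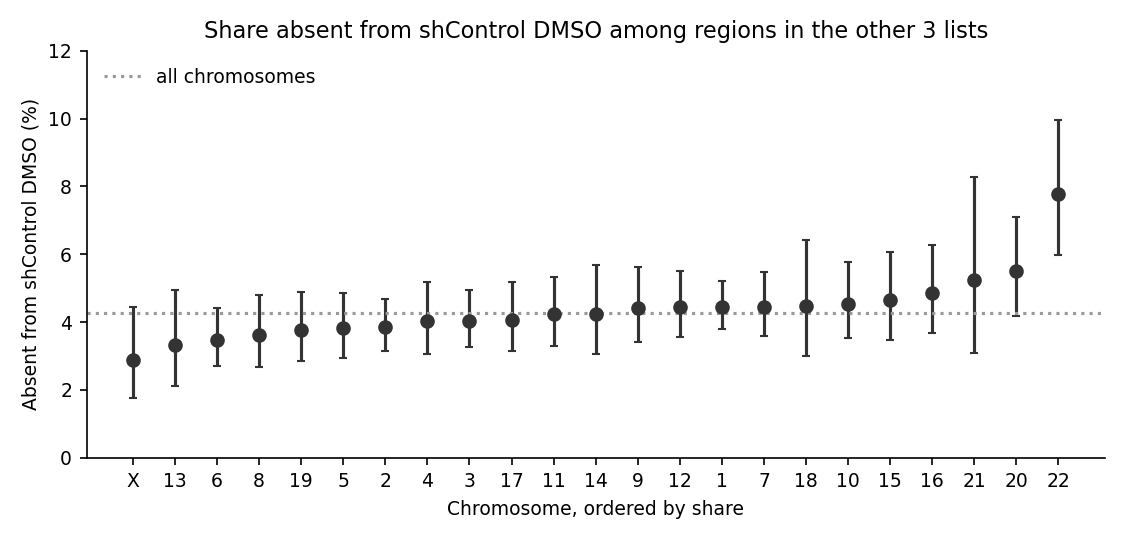
Share of regions in the other 3 lists that were absent from shControl DMSO (vertical axis, %) for 23 chromosomes in order of the share, with exact binomial 95% intervals and a dotted line at 4.26% for all chromosomes. Chromosome 22 stands at 7.79%, and its interval starts at 5.96%, above the line.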

How the data were processed

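One ATAC-seq library per group was available as a peak list. The submitters' processing notes name BWA, MACS2 2.0 and the build GRCh38 (hg38). The sources used here give no settings, and nothing on the transposase offset, duplicates or mitochondrial reads. Per the file headers, each peak has a position, a score, an annotation, a signed distance to the nearest TSS in bp and a nearest gene. The deposited score is the authors' own value on a scale that is not given, with a minimum of 1.30 or 1.31, and was used only to rank peaks within a list. Coordinates are as deposited.

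Peaks were joined where they shared at least 1 bp (Python 3.11.15, pandas 2.3.3, NumPy 2.4.6, SciPy 1.17.1; figures with matplotlib 3.10.9). The joining was tested on simulated data. A region with several peaks of a list took the strongest for rank and width. Promoter regions had a peak centre within 1 kb of a TSS, and gene symbols are those of the strongest peak or, for promoters, of the peak nearest the TSS. Of 425 list genes, 382 were a nearest gene in the lists. The text names the 12 strongest and 5 widest regions, promoter regions of list genes, and the regions at the limits of the rule. Genes nearest to 4 or more regions of the set were to be named, and there were none. Regions of chromosome 8 were counted but not named among the strongest and widest. Members and gene lists were chosen with earlier results of these data known. Promoter windows come from RefSeq (GRCh38.p14). Peak lists hold no reads, so precision is given as counting intervals.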

Additional observations from a re-analysis of the deposited data

How the results depend on the processing

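The number of regions absent only from shControl DMSO, their share and their promoter share stayed within 1.5 times the reported number or inside the reported interval in 17 of 23 recomputed values, over 9 alternatives. With equal numbers of top-scoring peaks from each list (44760) the share absent was 5.55%, above the 4.70% of shControl rapamycin. With only the stronger 50% of the other 3 lists and the whole shControl DMSO list, there were 78 regions, a share of 0.422% with 23.1% promoters. The promoter share was 22.6% with a 2 kb limit and 13.7% by the authors' promoter annotation. In alternatives chosen after seeing the data, the promoter share was 17.8% where single peaks of the 3 lists shared a base and 18.2% without chromosome 22. Also chosen after seeing the data were the settings of the comparison with regions of matched rank in all 4 lists. There the promoter share of the set was 19.0% (17.2 to 20.9) against 15.3% with equal numbers, 22.6% against 20.9% with 2 kb and 13.7% against 12.7% by annotation. The last 2 matched values lie inside the intervals of the set, and that with equal numbers lies below its interval. In the same 3 alternatives the other sets stayed below their matched values. No paired analysis was possible because each group held 1 library. No replicate could be left out for the same reason, and unknown read depth limits what absence from a list shows.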

Other observations

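Nearest genes of the regions were spread widely, with 1364 distinct genes for 1406 regions. MIR573, a microRNA gene of chromosome 4, was the nearest gene of 3 of them, 40 genes were nearest to 2 regions each and 1323 to 1. The MIR573 regions lay 100845, 48992 and 31427 bp from its TSS, and the strongest of them (24488455 to 24489120) ranked at 46.8% in the shControl list and at 58.1% (DMSO) and 41.8% (rapamycin) in the shARID1A lists.

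By the RefSeq type of the nearest gene, 66.1% of the promoter regions of the set belonged to protein-coding genes (170 of 257, 60.0 to 71.9). Of the promoter regions in all 4 lists 79.7% did (79.0 to 80.4), without matching on rank. Genes of long non-coding RNA made up 7.78% (4.82 to 11.8) and 5.33%. Names without a match in RefSeq made up 19.5% (14.8 to 24.8) and 11.7%.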
